A study of Bos taurus with 6 samples.

Results

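The nuclear genes for complex III, cytochrome c, complex IV and ATP synthase of the mitochondrial respiratory chain were examined in bovine fetal fibroblasts (bEFs). Genes were taken by symbol, namely every symbol starting with UQCR, COX4, COX5, COX6, COX7, COX8 or ATP5, together with CYC1 and CYCS. This gave 41 of the 17663 genes in the expression table, of which 9 belong to complex III, 1 is cytochrome c, 13 belong to complex IV and 18 belong to ATP synthase or bind it. RNA-seq was carried out on bEFs of 3 fat-1 transgenic cattle fetuses (FT) and 3 wild-type Luxi cattle fetuses (WT), all 50 to 60 days old, with 1 poly(A) library per fetus. The transgene is fat-1 of Caenorhabditis elegans, which encodes a desaturase that turns n-6 into n-3 polyunsaturated fatty acids. The cells were grown from the trunk tissue of each fetus, freed of its organs and bones, so they are a primary culture, and the promoter that drives the transgene and the number of founder lines are not given in the sources used here. The breed of the FT fetuses is not given there either, so the transgene and any other difference between the groups of fetuses cannot be told apart.

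Complex III passes electrons from ubiquinol to cytochrome c through cytochrome b, cytochrome c1 and the Rieske iron-sulfur protein, and complex IV passes them on to oxygen. Both pump protons across the inner mitochondrial membrane, and ATP synthase uses the return flow, which turns a ring of c subunits and a central stalk inside the catalytic F1 head, to make ATP. The catalytic cores of complex IV and the proton channel of ATP synthase hold proteins encoded in mitochondrial DNA, which was not analysed here, while the genes described below are all nuclear and several complex IV subunits exist as tissue-specific isoforms.

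Total counts per library ranged from 48167642 to 69777641, and 14815 to 15538 genes had a count. FT_1 stood apart from the other libraries. Over all genes, the biological coefficient of variation was 55.3% between FT_1 and FT_2 and 55.9% between FT_1 and FT_3, against 8.18% between FT_2 and FT_3 and 9.93% to 13.3% between pairs of WT libraries. Replicates were separate fetuses, and each pair within a group differed by more than counting noise. Results that rest on FT_1 are therefore given with and without it.

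The label of the cells was compared with markers. Summed FPKM of 9 fibroblast markers in replicates 1, 2 and 3 was 6776, 16989 and 16716 for FT and 17743, 17209.8 and 17289 for WT cells, and the most abundant of them were DCN, the matrix protein decorin, at 3221 FPKM in FT cells and VIM, the intermediate filament protein vimentin, at 7793 in WT cells. Fibroblast markers were thus abundant in every library, FT_1 was the low one, and 1 of the 9, PDGFRA, was significantly higher in FT cells in edgeR, where 20.1% of all genes tested were higher and 18.9% lower. Without FT_1, 5 of the 9 were higher (COL1A1, DCN, LUM, PDGFRA and PDGFRB) and VIM was lower, where 30.6% of all genes were higher and 31.5% lower. For 6 epithelial markers the sums were 432 in FT_1, 12.7 in FT_2, 11.9 in FT_3, 10.0 in WT_1, 7.83 in WT_2 and 13.9 in WT_3. KRT5, a keratin of basal epithelium, led this list in FT_1 with 172 FPKM, against 2.57 in FT_2, 1.63 in FT_3 and 0 in the WT libraries. CDH1, which encodes E-cadherin, led it in the other 5 libraries with 7.11 FPKM in FT_2, 8.41 in FT_3 and 10.0, 7.83 and 13.9 in WT_1, WT_2 and WT_3, so the epithelial sum was by far the highest in FT_1. With all libraries, 0 of the 5 epithelial markers tested in edgeR were called at an adjusted p under 0.05, 4 were higher in FT at an unadjusted p under 0.05, and limma called 0 of 5 and DESeq2 0 of 2. Without FT_1 edgeR called 4 of 5 higher in FT, namely KRT5, KRT8, KRT14 and KRT18, all of which were above 0 in FT_2 and FT_3 and 0 in each WT library.

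Other marker lists separated the groups. Of 5 smooth muscle markers 4 were higher in FT cells (5 without FT_1), beside the 20.1% of all genes, with sums of 2483, 3754 and 3616 FPKM in FT_1, FT_2 and FT_3 and of 1095, 1076 and 1201 in WT_1, WT_2 and WT_3, and ACTA2, smooth muscle actin, was the most abundant on average in both groups. All 5 proliferation markers were lower in FT cells (4 without WT_1, 3 without WT_2 or without WT_3), beside the 18.9% of all genes, with sums of 35.7, 63.9 and 61.3 FPKM in the FT libraries and of 214, 256 and 213 in the WT libraries, and the most abundant were TOP2A, a topoisomerase, in FT cells and CCNB1, a mitotic cyclin, in WT cells. The sums of neither list overlapped between the groups. The 4 adipocyte markers summed to 1.44, 10.9 and 11.9 FPKM in FT_1, FT_2 and FT_3 and to 142, 129 and 145 in WT_1, WT_2 and WT_3, led in WT cells by FABP4, a fatty acid carrier, while ADIPOQ averaged 0.117 FPKM in WT cells and 0 in FT cells. FABP4 was lower in FT cells in edgeR and LEP higher, but the call of FABP4 was lost without FT_2 or any 1 WT library, and that of LEP in limma and without any 1 library other than FT_1. Sums of the skeletal muscle, endothelial, immune, neural and chondrocyte lists were below 18 FPKM in every library. They were led by DES, VWF, CD68, S100B and SOX9 in turn in FT cells and by MYF5, PECAM1, CD68, S100B and ACAN in WT cells, with MYH3, CKM, ACTA1, KDR, CDH5, AIF1 and COL2A1 under 0.1 FPKM on average. Among these lists DES was higher in FT cells (4.31 vs. 0.0233 FPKM, log2 fold change 7.44 ± 1.17, adjusted p = 0.00488), also with any 1 library left out. MYH3, CD68, TUBB3 and ACAN were lower (adjusted p = 0.0461, 0.0185, 0.0384 and 0.0395), and each lost its call without any 1 WT library and without FT_2 (CD68 and ACAN), FT_3 (MYH3) or either (TUBB3). Without FT_1, MYF5, PECAM1, MAP2 and S100B were called lower as well. The part of any of these differences in the results on the respiratory chain was not tested.

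**Figure D1:**
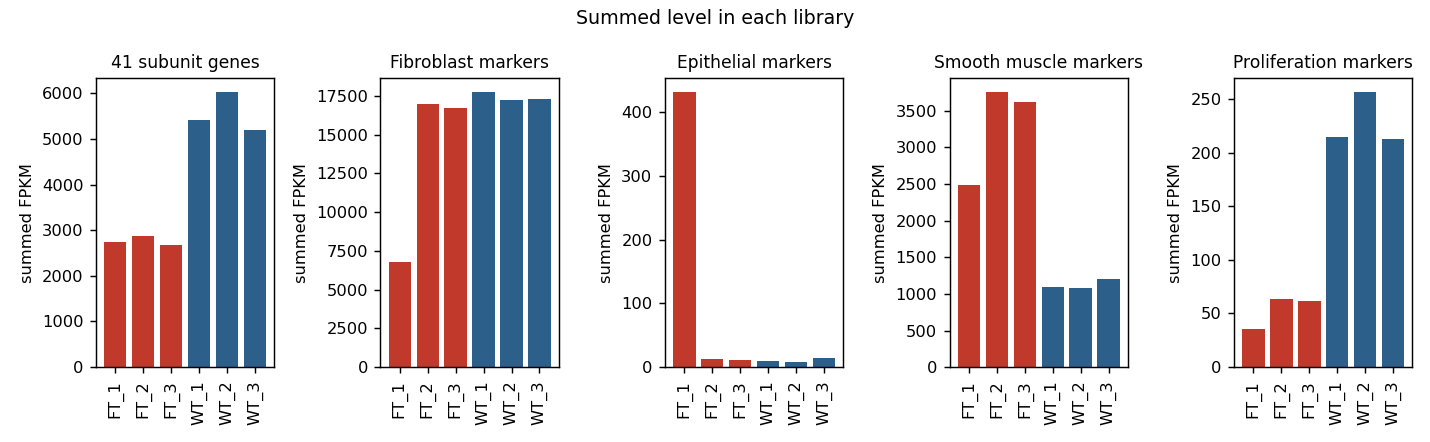
Summed FPKM in each library (FT red, WT blue, bars from 0) of the 41 subunit genes and of 4 marker lists. The subunit genes lie between 2681 and 2868 in FT and between 5206 and 6024 in WT libraries, and FT_1 stands apart in the fibroblast and epithelial lists but not in the subunit genes.

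The subunit genes as a whole were lower in FT cells. Their FPKM summed to 2752, 2868 and 2681 in FT_1, FT_2 and FT_3, against 5420.2, 6024 and 5206 in WT_1, WT_2 and WT_3. The libraries of each group lay close together, FT_1 between FT_2 and FT_3, and the groups did not overlap, the FT mean being 49.9% of the WT mean (2767 ± 94.8 vs. 5550.1 ± 424, SD, n = 3). FPKM was not rescaled between libraries, which is taken up below. The genes took 0.307%, 0.317% and 0.301% of all counts in FT_1, FT_2 and FT_3 and 0.609%, 0.682% and 0.593% in WT_1, WT_2 and WT_3. In bulk samples, fewer cells of a type and less RNA per cell cannot be told apart. By complex, the FT sum was 53.9% of the WT sum for complex III (543 ± 41.6 vs. 1008 ± 68.9 FPKM), 60.4% for complex IV (719.7 ± 45.4 vs. 1192 ± 94.3 FPKM) and 45.2% for ATP synthase (1470.1 ± 64.8 vs. 3249.9 ± 246 FPKM).

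**Figure D2:**
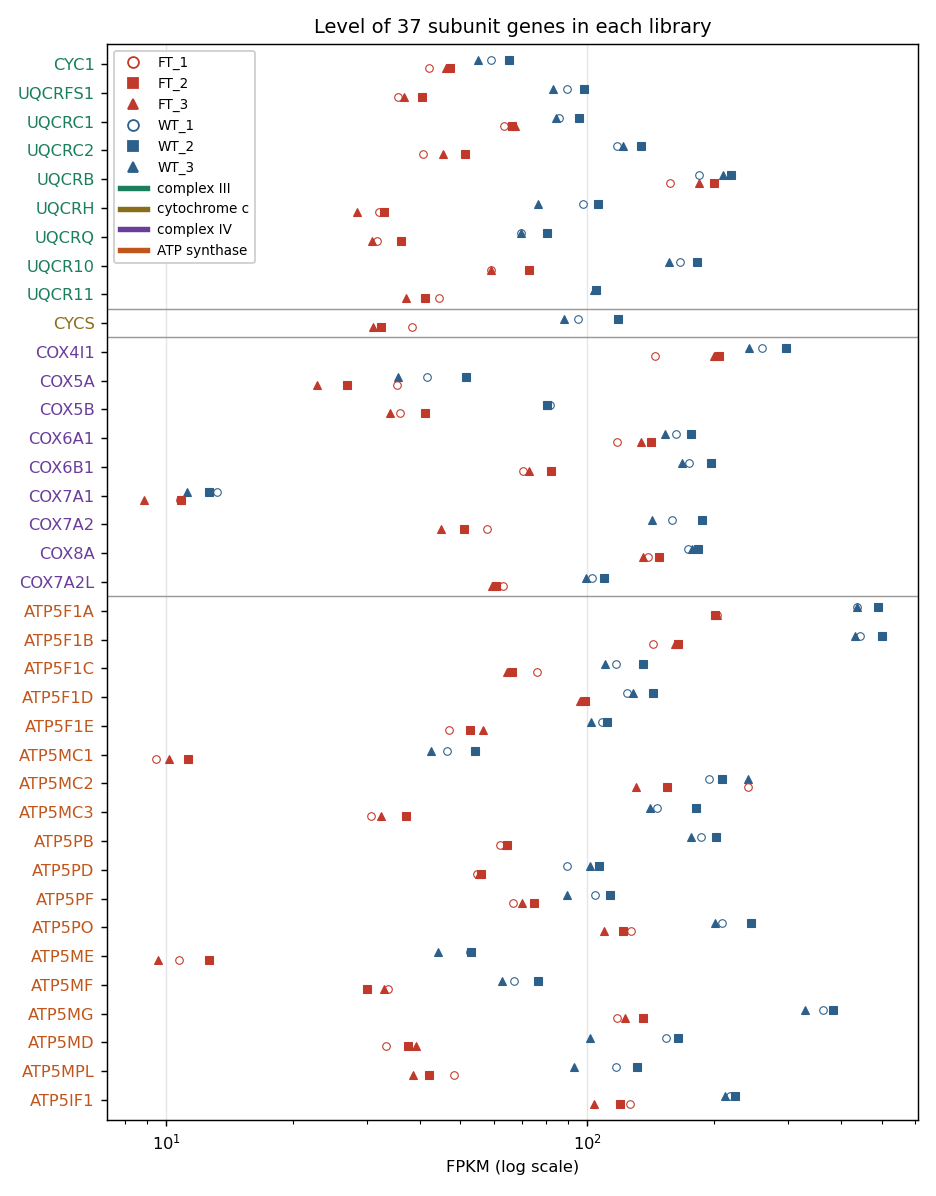
FPKM (log axis) in each library of the 37 subunit genes with a mean FPKM over 5, FT in red and WT in blue, 1 symbol shape per replicate. In 35 of the 37 genes every FT library lies below every WT library, the exceptions being UQCRB and ATP5MC2.

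Of the 41 genes, 38 had enough counts to be tested, and 37 of these were lower on average in FT cells. In edgeR's quasi-likelihood test, with p-values adjusted over all 13482 genes tested, 29 of the 38 were significantly lower in FT cells, where 18.9% of all genes tested were lower. The number significantly higher was 0 in edgeR, where 20.1% of all genes were higher, and it was also 0 at an unadjusted p under 0.05, in limma and in DESeq2. The methods of the study give a threshold of p under 0.05, with no adjustment named, together with a log2 fold change under -1. With this read as an unadjusted p, 17 were lower, against 8.96% of all genes. With limma on log2(FPKM + 1), 33 of 38 were significantly lower, against 29.2% of 12247 genes. Every FT library lay below every WT library in 35 of the 37 genes with a mean FPKM over 5, as in 36.9% of all genes tested in edgeR. The median log2 fold change was -0.95, against 0.03 over all genes tested. Without FT_1, 32 of 39 tested genes were significantly lower, against 31.5% of all genes, and these included each of the 29. COX8B, at under 1 FPKM, was then the 1 gene called higher.

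The scaling between libraries bore on these sizes. Without the TMM factors the median of all genes moved from 0.03 to -0.12 and that of the subunit genes from -0.95 to -1.10, and among all genes tested 3394 were lower and 2049 higher in FT cells, in place of 2547 lower and 2714 higher. The subunit genes then counted 32 lower and 0 higher. The limma fit on FPKM was not rescaled between libraries either, and its median over all genes was -0.12. Sums of FPKM, percentages of the WT mean and statements on overlap in FPKM carry this offset too. Summed over all genes, FPKM was lower in each FT library than in each WT library. The percentages of the WT mean are thus lower than the TMM-scaled fold changes beside them imply. In edgeR the median subunit gene was at 51.8% of WT with TMM factors and at 46.6% without them. With median-ratio scaling between libraries, limma called 29 subunit genes lower, against 21.6% of all genes.

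**Figure D3:**
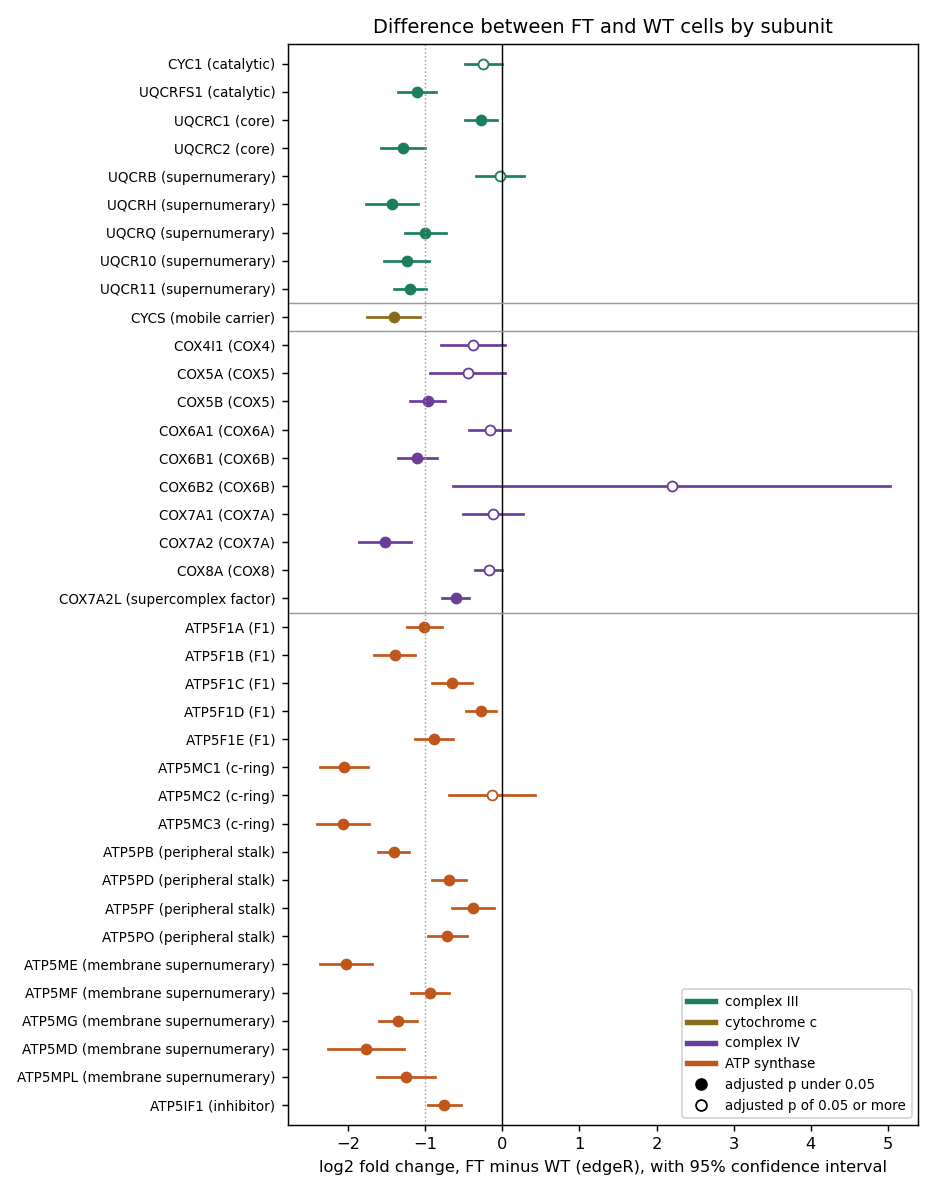
Log2 fold change (FT minus WT, edgeR) of the 38 tested genes with its 95% confidence interval, in order of complex and subunit position; filled points have an adjusted p under 0.05, and the dotted line marks -1. Filled points make up 7 of 9 in complex III, 4 of 10 in complex IV and 17 of 18 in ATP synthase, beside the 18.9% of all genes that were lower. COX6B2, with the widest interval, is the only point above 0.

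In complex III, 7 of 9 genes were significantly lower in FT cells in edgeR, where 18.9% of all genes were, and the median log2 fold change was -1.10. Of the catalytic subunits UQCRFS1 was called in edgeR and CYC1 was not, and the difference between them was not tested. UQCRFS1, the Rieske iron-sulfur protein (chromosome 18), had 35.5, 40.4 and 36.8 FPKM in FT_1, FT_2 and FT_3 and 89.7, 98.4 and 82.7 in WT_1, WT_2 and WT_3. Every FT library lay far below every WT library, and the log2 fold change was -1.10 ± 0.10 (SE, adjusted p = 0.00114). CYC1, the haem-carrying cytochrome c1 that hands electrons to cytochrome c (chromosome 14), stood at 42.1, 47.3 and 46.1 FPKM in the FT libraries and at 59.0, 65.2 and 55.2 in the WT libraries. The groups again did not overlap, yet the difference was small, with a log2 fold change of -0.24 ± 0.10 (SE), and the fits split on it (adjusted p = 0.0946 in edgeR, 0.0189 in edgeR without TMM factors and 0.0157 in limma; -0.08 and 0.509 with the length trend described below taken out). The study also measured CYC1 by RT-qPCR, and the primer pair listed for that assay is shown.
CYC1 sense: ccaggtagccaaggatgtgt
CYC1 antisense: ctttcggctcttgaggactg
The antisense sequence is printed in the study's primer list for SDHD as well, so the gene that it primes could not be settled from the list.

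Both core proteins were significantly lower, beside the 18.9% of all genes. UQCRC2 (chromosome 25) had 40.8, 51.3 and 45.5 FPKM in FT and 118, 134 and 121 in WT libraries, far apart, with a log2 fold change of -1.28 ± 0.12 (SE, adjusted p = 0.00115). Its partner UQCRC1 ranged from 63.3 to 67.5 FPKM in FT and from 84.2 to 95.8 in WT cells, a smaller difference that just passed the test (log2 fold change -0.27 ± 0.09, adjusted p = 0.0488) and no longer did so when FT_2, FT_3, WT_1, WT_2 or WT_3 was left out or with the length trend taken out (-0.19, adjusted p = 0.115). The genes of the paired core proteins were thus at 36.8% and 74.1% of their WT means.

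Among the 5 supernumerary subunits of complex III, 4 were significantly lower, beside the 18.9% of all genes. UQCRH, the acidic hinge protein at the cytochrome c side, had the largest fall among the 9 genes of the complex, from 97.8, 106 and 76.6 FPKM in the WT libraries to 32.1, 33.0 and 28.4 in the FT libraries (log2 fold change -1.43 ± 0.14, adjusted p = 0.0013). UQCR11 was 44.5, 41.2 and 37.1 FPKM in FT and 105, 105 and 104 in WT libraries. Its WT values were nearly identical, and it had the smallest p of the complex (log2 fold change -1.19 ± 0.09, adjusted p = 0.00073). UQCRQ and UQCR10 ranged from 30.8 to 36.2 and from 59.2 to 72.9 FPKM in FT cells and from 69.7 to 80.5 and from 156 to 182 in WT cells. UQCRB, the most abundant gene of the complex, gave 157, 199.7 and 184 FPKM in FT_1, FT_2 and FT_3 and 185, 220.0 and 211 in WT_1, WT_2 and WT_3. Its groups overlapped, FT_2 lying above WT_1, and no difference was detected (log2 fold change -0.03 ± 0.13, 95% confidence interval -0.34 to 0.28, adjusted p = 0.882), with a sign that turned without FT_1 (0.07), without WT_2 (0.02) and with the length trend taken out (0.30).

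CYCS, the soluble carrier between complexes III and IV that also takes part in apoptosis, had 38.4, 32.4 and 31.1 FPKM in FT libraries and 94.9, 119 and 88.2 in WT libraries. All FT values lay far below all WT values, and the log2 fold change was -1.41 ± 0.14 (SE, adjusted p = 0.00138), the FT mean being 33.8% of the WT mean.

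In complex IV, 4 of 10 tested genes were significantly lower in edgeR, where 18.9% of all genes were, and the median log2 fold change was -0.41. The count and the median varied with the fit: limma called 7 (29.2% of all genes), edgeR without TMM factors 6 (25.2%) and edgeR without FT_1 6 of 11 (31.5%), and the median was -0.23 without FT_1 and -0.27 with the length trend taken out. The difference from the other complexes was not tested. COX4I1, COX8A and COX6A1, all over 100 FPKM in every library, were not called in edgeR. COX4I1, the ubiquitous isoform of the subunit that binds nucleotides, had 145, 205 and 199.7 FPKM in FT_1, FT_2 and FT_3 and 261, 296 and 243 in WT_1, WT_2 and WT_3. FT_1 was the lowest library and spread the FT group (log2 fold change -0.38 ± 0.17, adjusted p = 0.124), and without it the gene was called with a smaller fold change (-0.23, adjusted p = 0.0394), as it was in limma and in edgeR without TMM factors (adjusted p = 0.0365 and 0.0419), while with the length trend taken out it was not (-0.18, adjusted p = 0.414). COX8A, the ubiquitous form of COX8, stood at 139, 148 and 136 FPKM in FT and at 174, 183 and 177 in WT libraries. COX6A1, the non-muscle form of a subunit that touches the dimer interface, stood at 117, 142 and 135 in FT and at 163, 176 and 153 in WT libraries. Neither gene overlapped between the groups in FPKM, but the differences were small (log2 fold change -0.18 ± 0.07, adjusted p = 0.1 for COX8A, and -0.16 ± 0.11, adjusted p = 0.285 for COX6A1). Without rescaling between libraries, limma called both, at adjusted p of 0.0143 and 0.0485. In edgeR without TMM factors COX8A was called and COX6A1 was not (adjusted p = 0.0151 and 0.0548), and with the length trend taken out both fold changes were above 0 (0.11 and 0.06) and neither was called.

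The 4 complex IV genes that were called were COX5B, COX6B1, COX7A2 and COX7A2L. COX5B, which binds zinc on the matrix side, gave 36.0, 41.2 and 33.9 FPKM in FT and 81.8, 80.1 and 80.2 in WT libraries (log2 fold change -0.96 ± 0.09, adjusted p = 0.0013). Its partner COX5A ranged from 22.8 to 35.3 FPKM in FT and from 35.5 to 51.5 in WT cells, with FT_1 next to WT_3, and was called only when FT_1 was left out (log2 fold change -0.44 ± 0.20, adjusted p = 0.124; -0.62 and 0.00355 without FT_1). COX6B1, on the intermembrane side, gave 70.2, 81.8 and 72.9 FPKM in FT and 175, 196 and 168 in WT libraries (log2 fold change -1.10 ± 0.10, adjusted p = 0.00122). The groups of both COX5B and COX6B1 were far apart. COX7A2L, which joins complexes III and IV into supercomplexes, gave 63.2, 60.8 and 59.5 FPKM in FT and 103, 109.7 and 99.1 in WT libraries (log2 fold change -0.60 ± 0.07, adjusted p = 0.00224). Its libraries were close together within each group and did not overlap between groups.

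Of the COX7A isoforms COX7A2 was called in edgeR and COX7A1 was not. COX7A2, the form of most tissues, had 57.8, 50.9 and 44.9 FPKM in FT and 159, 188 and 142 in WT libraries, the largest fall among the 10 genes of the complex that were tested in edgeR (log2 fold change -1.51 ± 0.14, adjusted p = 0.00115). COX7A1, the form typical of heart and skeletal muscle, had 10.8, 10.9 and 8.87 FPKM in FT and 13.2, 12.6 and 11.2 in WT libraries, a small difference that was not called (log2 fold change -0.12 ± 0.16, adjusted p = 0.589; 0.19 and 0.357 with the length trend taken out). The ratio of COX7A1 to COX7A2, which does not depend on the scaling between libraries, was 0.187, 0.213 and 0.198 in FT_1, FT_2 and FT_3 and 0.0829, 0.0672 and 0.0787 in WT_1, WT_2 and WT_3. The ratio was thus 2.62-fold higher in FT cells with no overlap. The exact two-sided permutation test gave p = 0.1, the smallest that 3 against 3 libraries allow, and 0.2 after adjustment over the 4 isoform ratios computed. COX7A1 remained the lesser isoform in every library.

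The other tissue-restricted isoforms of complex IV were close to or at 0. COX6B2, the testis form, had 2.82, 0.15 and 0.53 FPKM in FT_1, FT_2 and FT_3 and 0.07, 0.48 and 0.26 in WT_1, WT_2 and WT_3. Its high value lay in FT_1 alone and the groups overlapped (log2 fold change 2.19 ± 1.16, adjusted p = 0.181; 0.55 and 0.607 without FT_1). The ratio of COX6B2 to COX6B1 overlapped too and was 4.02% or less in every library (exact permutation p = 0.2). COX8B, a muscle form, had 3, 9 and 23 counts in FT and 3, 0 and 4 in WT libraries, too few for the test with all libraries, and its span overlaps the spans of PSMD13 and NBAS on the other strand, each with 3156 counts or more on average. This overlap may point to a problem of the annotation or the build, so whether the counts are those of COX8B could not be settled. The call of COX8B as higher without FT_1 (log2 fold change 3.05, adjusted p = 0.0208) rests on the 9 and 23 counts of FT_2 and FT_3. COX7B2, another testis form, had 0 counts in each FT library and 16, 4 and 10 in WT libraries, at least 9.45-fold lower in FT cells when FT is set to a floor of 3 counts over the group. COX7B2 was not tested in the main fit. It was called lower in DESeq2, in edgeR without the filter on low counts, and in edgeR without FT_2 or without FT_3, but in no other fit. COX4I2, the lung form, had 4 counts in WT_1 and 0 elsewhere, and no fold change is given. The floor for COX7B2 covers counting error only. The expression table has no row under the symbols COX6C, COX7B and COX7C, which encode other complex IV subunits.

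In ATP synthase, 17 of 18 genes were significantly lower in FT cells in edgeR, where 18.9% of all genes were, and the median log2 fold change was -0.97. All 5 genes of the F1 head and central stalk were among them. ATP5F1A, the alpha subunit that alternates with beta around the head, had 204, 201 and 203 FPKM in FT libraries and 438, 491 and 438 in WT libraries. The FT libraries were almost identical and all lay under every WT library, at 44.5% of the WT mean (log2 fold change -1.01 ± 0.09, adjusted p = 0.00114). ATP5F1B, the catalytic beta subunit, had 143, 164 and 161 FPKM in FT and 444, 500.1 and 433 in WT libraries, which was 34.0% of WT (log2 fold change -1.39 ± 0.11, adjusted p = 0.000852). Alpha and beta transcripts were at about the same FPKM in WT cells (455 ± 30.6 and 459 ± 36.0), whereas in FT cells alpha was above beta in each library (203 ± 1.78 and 156 ± 11.2). ATP5F1C, the gamma subunit that forms the rotating shaft, had 76.0, 66.4 and 64.4 FPKM in FT and 117, 135 and 110.2 in WT libraries, again without overlap (log2 fold change -0.65 ± 0.11, adjusted p = 0.00602). The delta and epsilon genes ATP5F1D and ATP5F1E had log2 fold changes of -0.28 ± 0.08 and -0.88 ± 0.10 (adjusted p = 0.0393 and 0.00207), and the call of ATP5F1D was lost when FT_2, FT_3, WT_1, WT_2 or WT_3 was left out. With the length trend taken out ATP5F1D had a log2 fold change of -0.05 and was not called (adjusted p = 0.613), and ATP5F1E had -0.58.

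Both ATP5F1A and ATP5F1C were also read by targeted assays in the study, the former by RT-qPCR and the latter by methylated DNA immunoprecipitation of its promoter region. Their primers are shown because they fix what those assays read, with the number in brackets naming the predicted CpG island.
ATP5F1A sense: ctcttgagtcgtggtgtgcg
ATP5F1A antisense: cctgatgttggctgataacgtg
ATP5F1C(3) sense: agtgccgggacgaggtaagc
ATP5F1C(3) antisense: acagccctactgagtggagtcc
ATP5F1C(4) sense: gcttgccctgttccgcttcc
ATP5F1C(4) antisense: gccttcggggtgaggaaatctg
No methylation value was analysed here. In the expression table ATP5F1C spans 16093405 to 16110168 of chromosome 13 on the minus strand, and KIN, a gene on the opposite strand, overlaps it with 1228 counts on average against 8425 for ATP5F1C. The submitters' processing notes name the build mm8, a mouse build that cannot hold these cattle genes, so the cattle build of the coordinates is not known.

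Among the parts of ATP synthase, the genes of the c-ring parted most. ATP5MC1, ATP5MC2 and ATP5MC3 encode the same mature c subunit behind different import sequences. ATP5MC1 had 9.47, 11.2 and 10.2 FPKM in FT and 46.4, 54.2 and 42.6 in WT libraries (log2 fold change -2.05 ± 0.13, adjusted p = 0.000544). ATP5MC3 had 30.7, 37.0 and 32.4 FPKM in FT and 146, 182 and 141 in WT libraries (log2 fold change -2.07 ± 0.14, adjusted p = 0.000638). Both had nearly equal falls, to 21.6% and 21.4% of WT, the largest of the 38 genes tested with all libraries. Without FT_1 the largest fall was that of ATP5ME (log2 fold change -2.002, against -1.999 for ATP5MC3 and -1.984 for ATP5MC1). ATP5MC2, the most abundant of the 3, had 241, 155 and 131 FPKM in FT_1, FT_2 and FT_3 and 194, 209 and 241 in WT_1, WT_2 and WT_3. FT_1 lay among the WT values while FT_2 and FT_3 lay below them (log2 fold change -0.14 ± 0.23, adjusted p = 0.667), and the fold change was above 0 without FT_3 (0.03) and with the length trend taken out (0.08). Without FT_1 the gene was called lower (log2 fold change -0.42, adjusted p = 0.00567), still far less than its 2 paralogs.

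Within each library, the ratio of ATP5MC1 to ATP5MC3 was 0.308, 0.303 and 0.314 in FT and 0.317, 0.298 and 0.302 in WT libraries. These overlapped and differed by 0.01 on the log2 scale (exact permutation p = 0.7). Without WT_1 every FT ratio lay above every WT ratio, by 0.04 on the log2 scale on average (exact permutation p = 0.2, the smallest that 3 against 2 libraries allow). The ratio of ATP5MC2 to ATP5MC3 was 7.84, 4.18 and 4.04 in FT_1, FT_2 and FT_3 and 1.33, 1.15 and 1.71 in WT_1, WT_2 and WT_3. It was 3.70-fold higher in FT cells without overlap, with or without FT_1 (exact two-sided permutation p = 0.1, the smallest possible, and 0.2 after adjustment over 4 ratios). ATP5MC2 accounted for 85.7%, 76.2% and 75.4% of all c transcripts in the FT libraries and for 50.2%, 47.0% and 56.7% in the WT libraries. The 3 genes together summed to 219 ± 55.4 FPKM in FT and 419 ± 29.3 FPKM in WT cells. The sources used here do not say how reads that fit several near-identical genes were assigned, which bears on paralogs such as these.

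**Figure D4:**
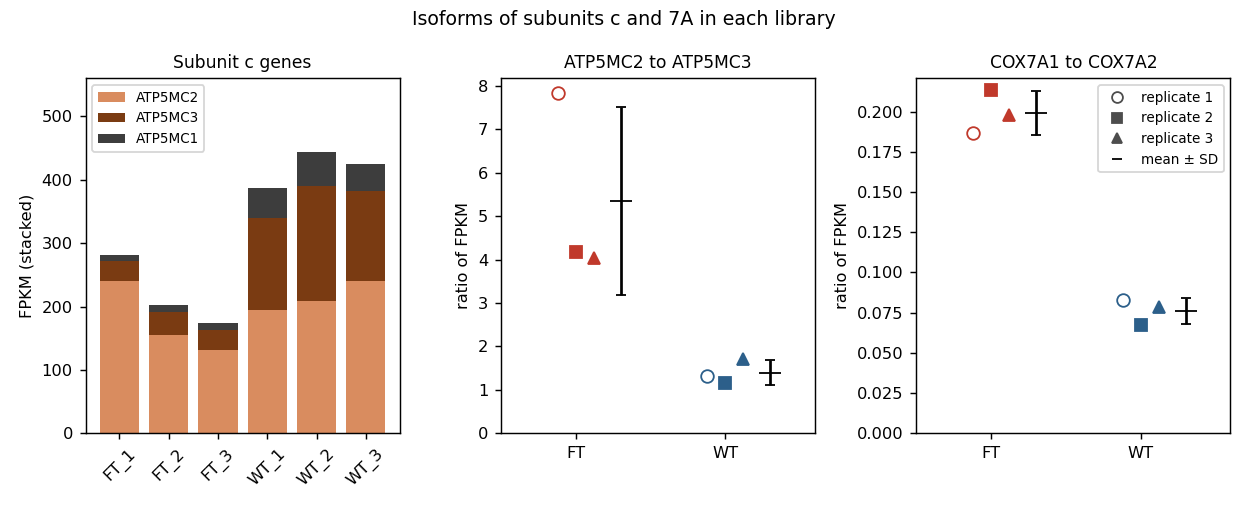
Left, FPKM of the 3 subunit c genes stacked for each library; middle and right, the within-library ratios ATP5MC2 to ATP5MC3 and COX7A1 to COX7A2 with mean ± SD (n = 3). The groups do not overlap in either ratio, FT lying above WT, and FT_1 carries the highest ATP5MC2 to ATP5MC3 ratio, 7.84.

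All 4 genes of the peripheral stalk, which holds the F1 head still, were significantly lower, beside the 18.9% of all genes. ATP5PB, the b subunit, had 62.1, 64.5 and 64.1 FPKM in FT and 186, 202 and 176 in WT libraries. The groups were far apart, and this gene had the smallest p of the 38 (log2 fold change -1.41 ± 0.08, adjusted p = 0.000523). ATP5PO, which ties the stalk to the top of the head, had 127, 121 and 109.7 FPKM in FT and 209, 244 and 201 in WT libraries (log2 fold change -0.71 ± 0.10, adjusted p = 0.00392). ATP5PD and ATP5PF had log2 fold changes of -0.69 ± 0.09 and -0.38 ± 0.11 (adjusted p = 0.00285 and 0.0393), and the call of ATP5PF was lost when FT_2, FT_3, WT_1 or WT_2 was left out and with the length trend taken out (-0.17, adjusted p = 0.24). ATP5PF shares part of its span with GABPA on the other strand.

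All 5 supernumerary membrane subunits, several of which join ATP synthase dimers and bend the cristae, were significantly lower, beside the 18.9% of all genes. Their median log2 fold change was -1.35. ATP5ME, the e subunit at the dimer interface, had 10.7, 12.6 and 9.56 FPKM in FT and 52.6, 52.9 and 44.3 in WT libraries, so that FT cells held 22.0% of the WT level (log2 fold change -2.03 ± 0.14, adjusted p = 0.000652). Its partner ATP5MG, the g subunit, had 118, 136 and 123 FPKM in FT and 363, 383 and 328 in WT libraries (log2 fold change -1.35 ± 0.10, adjusted p = 0.000768). For both, the highest FT library was less than the lowest WT library by a wide margin. ATP5MD, ATP5MPL and ATP5MF had log2 fold changes of -1.77 ± 0.20, -1.24 ± 0.15 and -0.94 ± 0.10 (adjusted p = 0.00197, 0.00234 and 0.00165), and ATP5MD was the least even of them in WT cells, from 102 FPKM in WT_3 to 165 in WT_2.

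ATP5IF1, the inhibitor that blocks ATP hydrolysis when the membrane potential drops, had 126, 119 and 104 FPKM in FT and 218, 225 and 213 in WT libraries. The inhibitor was lower together with the enzyme, without overlap (log2 fold change -0.75 ± 0.09, adjusted p = 0.00209; -0.45 with the length trend taken out), and its FT mean was 53.3% of WT, near the 45.2% of the ATP synthase genes in sum.

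Proteins that assemble the complexes or supply them were examined by lists, counting only listed genes that have a row in the expression table. In edgeR 18.9% of all genes tested were lower and 20.1% higher. For complex III, 1 of 5 assembly genes was significantly lower, near that share, namely UQCC1, which acts on cytochrome b (log2 fold change -0.61 ± 0.11, adjusted p = 0.00762). For complex IV, 16 of 28 rows were lower, with a median of -0.71, and 0 were higher in edgeR, in limma and in DESeq2. HIGD1A is counted under each of its gene IDs, at log2 fold changes of -1.95 and -1.63, both called lower. The number higher was 1 at an unadjusted p under 0.05, 1 without FT_1 (COX10, adjusted p = 0.0434) and 1 with the length trend taken out (COA3). The lower genes included COX17, a copper chaperone (19.3 ± 3.18 vs. 68.1 ± 8.36 FPKM, log2 fold change -1.66 ± 0.16, adjusted p = 0.0013), and LRPPRC, which stabilises mitochondrial mRNAs (19.9 ± 1.26 vs. 39.3 ± 1.86 FPKM, log2 fold change -0.82 ± 0.08, adjusted p = 0.00125). For ATP synthase, 3 of 6 assembly genes were lower, namely ATPAF1, TMEM70 and DMAC2L, and the median was -0.47 (5 lower in limma and in edgeR without TMM factors, and a median of -0.29 with the length trend taken out). In the list for haem, copper and phosphate supply, 5 of 10 genes were lower and 1 was higher (2 higher with the length trend taken out, ALAD being the second). The higher gene was ALAS1, the first enzyme of haem synthesis (21.1 ± 2.30 vs. 13.4 ± 0.966 FPKM, log2 fold change 0.81 ± 0.10, adjusted p = 0.00248), and among the lower was SLC25A3, which imports phosphate and copper (117 ± 5.30 vs. 293 ± 24.4 FPKM, log2 fold change -1.17 ± 0.09, adjusted p = 0.000887).

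Among the listed carriers that exchange ADP for ATP, SLC25A5 has no row under that symbol in the expression table, which covers chromosomes 1 to 29. The 2 carriers with a row had fold changes of opposite sign, and the calls of both depended on the fit. SLC25A6 had 600.3, 373 and 380.2 FPKM in FT_1, FT_2 and FT_3 and 304, 288 and 307 in WT_1, WT_2 and WT_3. Every FT library was above every WT library and FT_1 was the highest (log2 fold change 0.74 ± 0.19, adjusted p = 0.0268). The gene was not called in limma or in edgeR without TMM factors (adjusted p = 0.0662 and 0.0605), nor without any 1 WT library. SLC25A4, the muscle form, had 38.9, 35.1 and 34.9 FPKM in FT and 49.8, 49.0 and 47.96 in WT libraries, lower in each FT library (log2 fold change -0.27 ± 0.07, adjusted p = 0.0261), and it was not called with the length trend taken out (-0.14, adjusted p = 0.16) or without any 1 library other than FT_1.

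Other large assemblies were set beside the subunit genes and beside the shares of all genes, 18.9% lower and 20.1% higher in edgeR. The complex I list holds the assembly factors NDUFAF1 to NDUFAF8 beside the subunits, and also NDUFA4, which is assigned to complex IV as well. Of its 45 genes 33 were lower, with a median log2 fold change of -0.68, and 0 were higher in edgeR, in limma and in DESeq2. The number higher was 1 at an unadjusted p under 0.05, 1 without FT_1, 1 without WT_2 and 1 with the length trend taken out. Of 77 mitochondrial ribosomal protein genes 39 were lower and 6 higher (median -0.42). Without WT_1, 3 were higher, where 10.98% of all genes were. The list of 78 cytosolic ribosomal protein genes holds RPS19BP1, which encodes a protein that binds RPS19 and was not called with all libraries. Of the 78, 30 were lower and 2 higher (median -0.37), and this count varied widely. Without FT_1 it was 62 lower and 5 higher of 79, where 31.5% of all genes were lower and 30.6% higher. Without FT_2, FT_3, WT_1 or WT_2 in turn 15, 17, 14 and 12 were lower, where 14.2%, 14.4%, 11.1% and 11.3% of all genes were. With the length trend taken out 19 were lower and 6 higher (median -0.17), where 19.1% of all genes were lower. The vacuolar ATPase, a proton pump that is related to ATP synthase but lies in lysosomes, had 5 of 18 genes lower and 1 higher (median -0.25), with 8 lower and 5 higher without FT_1 (median -0.10), 0 to 2 lower and 0 to 1 higher without any 1 other library, and 8 of 17 lower and 0 higher in limma. Without the filter on low counts 3 of 22 were lower and 1 higher, and the median was above 0 (0.05). With the replicate number as a block 1 of 18 was lower and 1 higher. Genes lower in FT cells were thus frequent in the complex I list as well, and differences between these groups of genes were not tested.

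**Figure D5:**
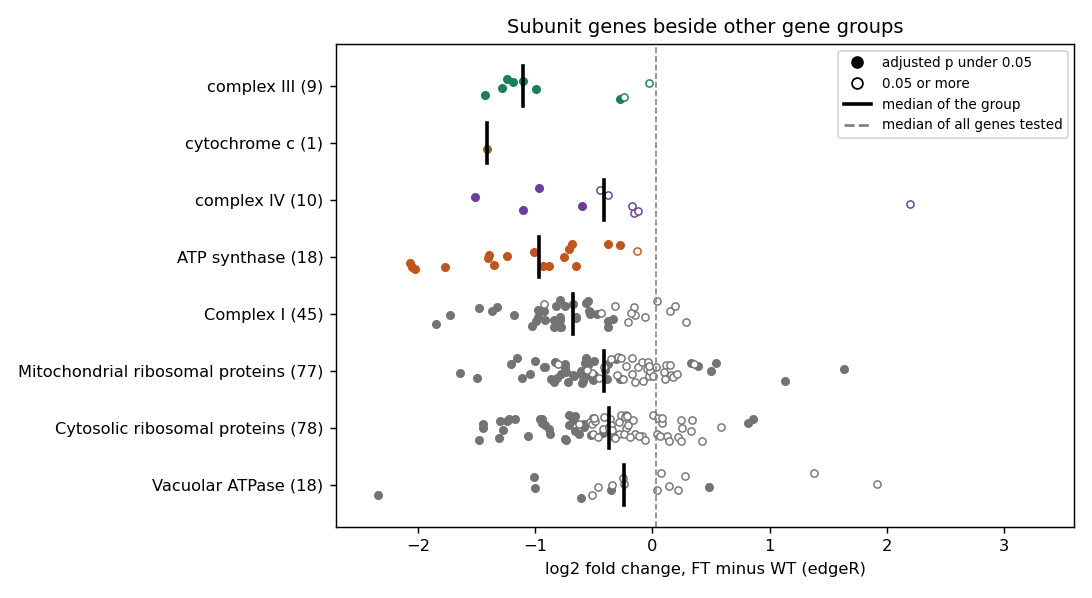
Log2 fold change (FT minus WT, edgeR) of each tested gene in complex III, cytochrome c, complex IV, ATP synthase and 4 other assemblies, with the number of genes tested in brackets; filled points have an adjusted p under 0.05, black bars are group medians and the dashed line is the median of all genes tested, 0.03. Medians run from -1.41 for cytochrome c to -0.25 for the vacuolar ATPase.

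Gene length went with the fold change over the whole table, and the subunit genes are short. Their median relative length was 0.448, against 1.06 for all genes tested, in units of count divided by FPKM scaled over the table. Over all genes Spearman's rho between length and log2 fold change was 0.18 (13311 genes, which share the same 6 libraries), and among 37 subunit genes it was 0.02. In the 1594 genes tested no longer than the middle subunit gene, the median log2 fold change was -0.25 and 26.4% were significantly lower. With a trend on length taken out of each library, 26 of the 38 subunit genes were significantly lower, against 19.1% of all genes, and the median was -0.71. The genes no longer called were ATP5F1D, ATP5PF and UQCRC1, those with the smallest falls among the 29, and at the threshold of the study's methods 12 genes were lower in place of 17. Level in WT cells did not order the fold changes either (Spearman's rho 0.00356 over the same 37 genes).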

How the data were processed

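RNA-seq of 6 bEF libraries, 3 FT and 3 WT, was analysed from 1 table of 17663 genes on chromosomes 1 to 29. Per the paper's methods, the authors aligned reads with HISAT, joined the transcripts of all samples by Perl scripts, and ran StringTie and edgeR. The submitters' processing notes name Bowtie 0.12.2, HISAT2 2.0, StringTie 1.3.0 and the mouse build mm8; the cattle build is not given in the sources used here. Raw counts per gene and FPKM, fragments scaled by gene length and library total, were deposited by the authors side by side.

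Counts were tested with edgeR 4.0.16 (TMM scaling, filterByExpr, quasi-likelihood test) in R 4.3.3, with Benjamini-Hochberg adjustment over all genes tested and a threshold of 0.05. limma 3.58.1 with an intensity trend was run on log2(FPKM + 1) without rescaling between libraries, keeping those genes whose mean FPKM reached 0.5. DESeq2 1.42.0 was run as an alternative. Isoform ratios were tested by exact permutation. The fits were tested on simulated counts with 200 changed genes. All 200 were recovered by edgeR, limma and DESeq2, with 9, 12 and 23 false calls. Every simulated library had the same spread, so a library that stands apart as FT_1 does was not covered. The other alternatives were size factors, no filter, a length trend (lowess span 0.3), a replicate block and leaving out each library.

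Values in every library are given for the most abundant gene and the gene with the smallest p of each subunit position, for isoform pairs, for the largest fall of each complex, for any gene called higher, and for CYC1, ATP5F1A and ATP5F1C, 30 genes in all. Values are mean ± SD (n = 3), and log2 fold changes carry their SE. Members and gene lists were chosen with earlier results of these data known. Ribosomal S6 kinases were left out of the ribosomal protein list, and RPS19BP1 was kept in it. Of the 41 symbols, 39 were found in the RefSeq gene table of ARS-UCD2.0, which was used for names alone.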

Additional observations from a re-analysis of the deposited data

How the results depend on the processing

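The number of subunit genes significantly lower in FT cells, 29, ranged from 26 to 36 over all alternatives, the highest being limma without FT_1. No alternative brought it outside 1.5 times the 29. Leaving out each library in turn gave 26 to 32 lower genes, 0 to 1 higher, 17 to 20 lower at the threshold of the study's methods and 29 to 36 lower in limma. Over all genes tested in the same edgeR fits, 11.1% to 31.5% were lower and 10.98% to 30.6% higher. The shares lower were 7.4% to 12.2% at the threshold of the study's methods and 19.2% to 42.5% in limma. Each of these shares was highest without FT_1. The calls lost from the 29 were those of UQCRC1, ATP5F1D and ATP5PF, and none of the 29 changed sign when a library was left out. The 1 higher gene was COX8B without FT_1, where fewer samples let it pass the filter on low counts. The ratio of ATP5MC2 to ATP5MC3 ranged from 1.58 to 2.06 on the log2 scale and that of COX7A1 to COX7A2 from 1.301 to 1.45. The ratio of ATP5MC1 to ATP5MC3 ranged from -0.0037 to 0.0398 and changed sign without WT_2; without WT_1 the groups did not overlap. Of 351 refits of single named genes, 334 kept their direction and side of the threshold, 9 newly passed it, those of CYC1, COX4I1, COX6A1, COX8A and ATP5MC2, and 8 took the other sign without being called. With the length trend taken out these were UQCRB (0.296), COX6A1 (0.0575), COX7A1 (0.188), COX8A (0.109) and ATP5MC2 (0.0764). With 1 library left out UQCRB ranged from -0.11 to 0.0735 and ATP5MC2 from -0.417 to 0.0266. In edgeR with TMM factors and all libraries none of these genes was called. Other fits did call some of them lower: limma called COX6A1 and COX8A, edgeR without TMM factors called COX8A, and edgeR without FT_1 called ATP5MC2. The cause of the change in sign was not tested.

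Same-numbered FT and WT libraries did not deviate together (correlations -0.001, -0.02 and 0.018 over genes), and libraries with unlike numbers gave -0.026 to 0.028. As FT_1 stood apart in the FT group, these values cannot show whether same-numbered libraries were handled together. With the replicate number as a block, 26 genes were lower and 0 higher in edgeR, where 12.9% of all genes were lower and 13.6% higher. In limma with this block 30 were lower, against 23.5% of all genes. Among the carriers and markers, SLC25A4, SLC25A6, LEP, MYH3, CD68, TUBB3 and ACAN lost their calls in edgeR with the block, while 4 epithelial markers were called higher in FT.

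Limits lie in 3 libraries per group, of which FT_1 stood apart, and in low counts for COX4I2, COX6B2, COX7B2 and COX8B. Exact permutation of 3 against 3 libraries cannot go below 0.1. The promoter motifs planned were not searched, as no promoter sequences were used here. Of the 41 genes, 8 overlap another gene, and whether counting used strand is not given.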
